A study of Mus musculus with 2 samples.

Results

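The genes described here carry very-long-chain and branched fatty acids into peroxisomes, shorten them there and supply the organelle with its enzymes. They are the membrane transporters Abcd2 and Abcd3, the chain-shortening enzymes Hsd17b4, Acaa1a, Acaa1b and Scp2, the import receptor Pex5 and the membrane-elongation gene Pex11a. They were chosen by name, as rows of these 8 gene symbols in the transcript tables of both libraries with every class of transcript model kept, and all 8 had reads in both libraries, out of 13192 annotated genes read in both and 16457 read in either. The tissue was whole adrenal gland taken from B6CASTF1/J males at 2 months of age; this strain is a first-generation cross and has 1 genome of B6 and 1 of CAST origin. The 2 long-read libraries form 1 group without treatment, so the values describe the tissue and how far these libraries differ. The labels call the libraries biological replicates. They also number the animals differently in the biosample and library fields and give both libraries 1 donor identifier. Separate animals are therefore not certain, so the spread may be technical and p-values concern these libraries only.

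Replicate 1 held 824225 reads on transcript models other than spike-ins and replicate 2 held 656826. CPM is reads per 1000000 of that total, so 1 read equals 1.21 CPM in replicate 1 and 1.52 CPM in replicate 2. Marker genes of the labelled tissue were read at high levels: the 5 cortical steroidogenic markers summed to 57388 and 60658 CPM, and the 4 chromaffin markers to 7363 and 7854 CPM. Fat-cell genes were also read, with 5 adipocyte markers at 3842 and 2268 CPM and 3 brown adipocyte markers at 2996 and 1046 CPM. Liver markers summed to 0 and 3.04 CPM, and kidney markers to 7.28 and 9.13 CPM.

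Peroxisomes take over fatty acids that are too long or too branched for mitochondria. Half-transporters of the ABCD family bring them in as coenzyme A esters, an oxidase makes the first double bond, a bifunctional enzyme adds water and oxidises, and a thiolase cuts off the shortened chain. In the adrenal cortex, where cholesterol is stored as fatty acid esters, failure to break down very-long-chain fatty acids lets them build up in those esters. Most matrix enzymes carry a targeting signal at their end that PEX5 binds, and a smaller set, with the ACAA1 thiolases among them, carries a signal near the start that PEX7 binds together with the long form of PEX5.

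Scp2 encodes 2 proteins in 1 reading frame, and the sequences that separate them show how the reads were told apart. The gene (ENSMUSG00000028603.15) lies on the minus strand of chromosome 4 from 108043839 to 108144998 (mm10). Transcript Scp2-201 starts at 108118532, has 16 exons and 2640 bases, and encodes the long form, a thiolase joined to a lipid carrier. Transcript Scp2-202 starts 47113 bases further on, at 108071419, has 5 exons and 772 bases, and encodes the lipid carrier alone. The first stretch below is coding sequence across the junction of exons 11 and 12 in the long form, with exon 12 in capitals. The second holds the first 60 coding bases of the short form with its start codon in capitals, and the third the last 60 coding bases of both with the final 3 codons, which hold the C-terminal targeting signal, in capitals.
Scp2 long form, exons 11 and 12: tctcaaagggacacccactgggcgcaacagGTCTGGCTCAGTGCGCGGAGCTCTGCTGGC
Scp2 short form, first coding bases: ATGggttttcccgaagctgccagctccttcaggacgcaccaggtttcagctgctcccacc
Scp2 both forms, last coding bases: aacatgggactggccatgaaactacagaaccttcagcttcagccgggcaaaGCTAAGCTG
The junction stretch joins 108074356-108074385 to 108071381-108071410, the start stretch joins 108071257-108071279 to 108063952-108063988, and the last stretch is 108044753-108044812, all on the minus strand and from GENCODE M21 transcripts. The 429 coding bases of the short form were identical to the last 429 of the 1641 coding bases of the long form, so both end in the same signal.

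Most Scp2 reads assigned to a form were of the short form. Whether transcripts of both lengths are read equally well was not tested, so these are shares of reads. Reads whose model began within 500 bases of the internal start numbered 354 in replicate 1 and 215 in replicate 2, against 82 and 50 from the start of Scp2-201. The short form therefore made up 81.2% (95% Wilson interval 77.3 to 84.6) of the assigned reads in replicate 1 and 81.1% (76.0 to 85.4) in replicate 2, and the difference did not pass a two-sided exact Fisher test (p = 1.00, n = 2). These intervals cover counting error only. In CPM the short form stood at 378 ± 72.2 (mean ± SD, n = 2) and the long form at 87.8 ± 16.5. Both forms were lower in replicate 2 by nearly the same log2 ratio, -0.49 for the short form and -0.48 for the long form.

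The exons in which the models began were few. Models beginning in exon 1 or exon 12 of Scp2-201 took all but 11 spliced reads in each library, and no other inner exon started more than 6 reads in replicate 1 or 4 in replicate 2. The intron chain of Scp2-202 is also the end of the chain of Scp2-201, and its first exon is exon 12 with 9 more bases, so a long-form read that broke off inside exon 12 would be counted as short. The files hold no 5′ ends of single reads. The remaining 14 exons after the first started 9 spliced reads in replicate 1 and 11 in replicate 2, all together. Upstream of the start of Scp2-201, where annotation reaches 108144998, 0 reads began. Single-exon models inside exon 16 held a further 35 reads in replicate 1 and 13 in replicate 2, which belong to neither form by their start.

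**Figure D1:**
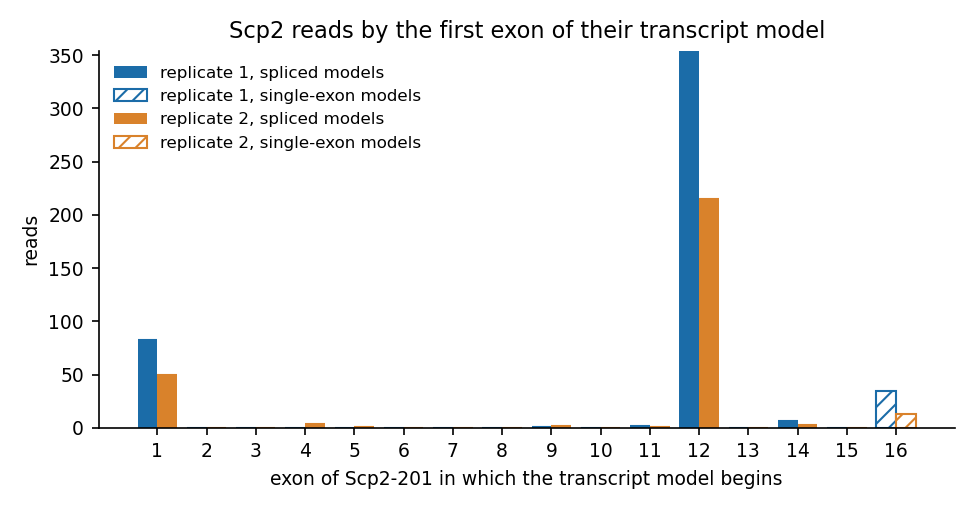
Reads of Scp2 (vertical axis, number of reads) by the exon of Scp2-201 in which their transcript model begins (horizontal axis), with filled bars for spliced models and hatched bars for single-exon models. Exon 12 started 354 and 215 reads and exon 1 started 82 and 50, while no other inner exon passed 6.

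Scp2 was the most abundant of the genes as a whole, at 585 CPM (482 reads) in replicate 1 and 440 CPM (289 reads) in replicate 2, and ranked 226 by mean CPM. It gave 38.8% and 33.9% of the reads of all 8 genes. Per kilobase of model length it stood at 462 CPM per kb. Its mean model length, 1109 bases, was the shortest of the 8, so division by length could only leave it first. Scp2-202 held 73.0% and 72.3% of the gene's reads and Scp2-201 15.8 ± 0.106% (mean ± SD, n = 2). The most abundant new spliced model was a 3-exon model beginning in exon 14, with 6 and 3 reads.

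The thiolase genes Acaa1a and Acaa1b are close copies that were read at different levels. Acaa1a (ENSMUSG00000036138.16, chromosome 9, plus strand, 119339676-119350299) was read at 250 CPM (206 reads) in replicate 1 and 288 CPM (189 reads) in replicate 2. Acaa1b (ENSMUSG00000010651.4, chromosome 9, minus strand, 119148023-119157093) was read at 35.2 CPM (29 reads) and 36.5 CPM (24 reads). Each library of Acaa1a stood above each of Acaa1b, and the ratio of their reads was 7.10 and 7.88. Their first 120 coding bases are shown because they hold the stretch that encodes the N-terminal targeting signal; capitals mark the bases that differ between the genes.
Acaa1a, 119341515-119341634: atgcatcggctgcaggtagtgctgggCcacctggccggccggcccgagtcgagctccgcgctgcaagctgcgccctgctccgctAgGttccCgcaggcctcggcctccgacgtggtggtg
Acaa1b, 119156875-119156994: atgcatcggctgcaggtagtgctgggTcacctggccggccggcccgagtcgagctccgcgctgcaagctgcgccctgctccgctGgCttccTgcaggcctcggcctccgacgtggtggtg
Across all 1272 coding bases the genes differed at 44, an identity of 96.5%, and the longest run without a difference was 327 bases. How reads were divided between such copies was not given in the sources used here. A part of the Acaa1b reads could belong to Acaa1a; this was not tested.

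The promoters of the pair are set side by side because their levels differ. The 150 bases before each RefSeq start are given 5′ to 3′ on the strand of the gene (GRCm38.p6), with capitals for letters matched by a motif on either strand.
Acaa1a, 119341144-119341293: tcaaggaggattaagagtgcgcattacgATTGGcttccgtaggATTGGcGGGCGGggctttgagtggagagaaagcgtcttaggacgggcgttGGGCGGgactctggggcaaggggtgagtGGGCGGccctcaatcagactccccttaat
Acaa1b, 119157094-119157243: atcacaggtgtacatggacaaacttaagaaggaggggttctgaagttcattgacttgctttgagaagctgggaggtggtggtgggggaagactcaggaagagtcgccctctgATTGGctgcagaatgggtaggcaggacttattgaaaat
In the full windows of 300 bases, Acaa1a held 3 matches to GGGCGG and Acaa1b 0, and 35.7% of 32851 promoters held at least 1. Both held 1 match to CCAAT in the direction of the gene and 3 in the other, a motif present in 37.4% of promoters. Neither held TATAAA, present in 13.6%. Neither held 2 exact copies of AGGTCA in a row with 1 base between them, a form of the repeat bound by PPAR receptors, present in 0.0396%. Inexact repeats and bases further upstream were not searched, so a site for these receptors may have been missed. Of the 8 genes, 6 had an entry in this table.

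Acaa1a-201, the annotated 12-exon transcript, held 85.9% of Acaa1a reads in replicate 1 and 78.3% in replicate 2. A new 11-exon model of 3602 bases, which keeps intron 5 (119344509-119346469, 1961 bases), held 4 and 12 reads. Over all models, intron 5 was kept in 6 of 191 informative reads in replicate 1, or 3.14% (Wilson 1.45 to 6.68), and in 20 of 178 in replicate 2, or 11.2% (7.39 to 16.7). The intervals do not overlap, but the intron was chosen after its values were seen and no test was made. Spliced reads whose model began upstream of Acaa1a-201 numbered 6 of 202 in replicate 1, 2.97% (1.37 to 6.33), and 16 of 185 in replicate 2, 8.65% (5.39 to 13.6). These shares cannot be compared between the libraries. The 16 include the 12 reads of the new 11-exon model, whose 4 reads in replicate 1 were counted as beginning in the first exon. Acaa1b-201 held 86.2% and 83.3% of Acaa1b reads, and intron 3 of that gene was kept in 1 of 26 and 2 of 23 reads.

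Pex5, the receptor that carries matrix proteins to the membrane, was read in both of its known splice forms. The gene (ENSMUSG00000005069.12, chromosome 6, minus strand, 124396816-124415067) stood at 153 CPM (126 reads) in replicate 1 and 166 CPM (109 reads) in replicate 2. Its forms differ by exon 8 of Pex5-201, which is wholly coding and, with 111 bases, adds 37 codons without moving the frame. The whole exon is printed because it separates the receptor that serves both kinds of signal from the receptor that serves the C-terminal signal only; capitals mark the 21 bases that a shorter variant of the exon lacks.
Pex5 exon 8, 124404133-124404243: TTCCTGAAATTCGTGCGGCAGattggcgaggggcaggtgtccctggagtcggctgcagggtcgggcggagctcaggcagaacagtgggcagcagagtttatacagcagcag
The exon was held in 40 of 116 informative reads in replicate 1, 34.5% (Wilson 26.5 to 43.5), and in 39 of 99 in replicate 2, 39.4% (30.3 to 49.2). The intervals overlap, and the form without the exon was the commoner in both. The shorter variant had 1 read in each library. Pex5-202, which lacks the exon, held 70 and 57 reads, and Pex5-201 37 and 36. Retention of intron 7 of Pex5-202, the intron around exon 8, reached 2 of 77 and 4 of 64 reads that keep or splice out the whole intron. The most abundant new spliced models had 3 reads in sum; one was a 14-exon model with its first exon missing.

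Pex11a, which elongates the peroxisomal membrane before division, was the other gene with an exon of intermediate use. The gene (ENSMUSG00000030545.9, chromosome 7, minus strand, 79735957-79743131) stood at 69.2 CPM (57 reads) in replicate 1 and 71.6 CPM (47 reads) in replicate 2. Exon 2 of Pex11a-201 has 116 coding bases, 2 more than 38 whole codons, so its loss moves the reading frame, unlike that of the Pex5 exon. It is shown whole for that contrast.
Pex11a exon 2, 79740165-79740280: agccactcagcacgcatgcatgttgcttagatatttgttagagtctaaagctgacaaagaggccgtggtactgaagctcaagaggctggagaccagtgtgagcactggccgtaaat
It was held in 40 of 53 reads in replicate 1, 75.5% (Wilson 62.4 to 85.1), and in 30 of 41 in replicate 2, 73.2% (58.1 to 84.3). Pex11a-203, annotated as a processed transcript without this exon, held 22.8% of the gene's reads in replicate 1 (13 reads) and 11 reads in replicate 2, and Pex11a-202, a retained-intron transcript, 3 and 2 reads. No new spliced model of Pex11a reached 3 reads in sum.

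Abcd2 and Abcd3 encode half-transporters of the peroxisomal membrane; ABCD2 takes very-long-chain fatty acids, while ABCD3 takes branched and dicarboxylic acids and bile acid intermediates. Abcd3 (ENSMUSG00000028127.10, chromosome 3, minus strand, 121758774-121815302) stood at 120 CPM (99 reads) in replicate 1 and 83.7 CPM (55 reads) in replicate 2. Abcd2 (ENSMUSG00000055782.9, chromosome 15, minus strand, 91145871-91191799) stood at 36.4 CPM (30 reads) and 33.5 CPM (22 reads) over all models, of which annotated models held 17 and 14 reads (56.7% and 63.6%). Per kilobase of model length these came to a mean of 30.8 CPM for Abcd3 and 8.00 for Abcd2. Abcd2 models were the longer (mean 4369 against 3310 bases), so division by length could only widen the gap. In CPM both libraries of Abcd3 stood above both of Abcd2.

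A part of the Abcd2 reads began inside the gene, while Abcd3 gave almost a single transcript. Abcd3-201, with 23 exons, held 88.9% of Abcd3 reads in replicate 1 and 89.1% in replicate 2, and its most abundant new spliced model, of 15 exons, held 2 and 1 reads. Abcd2-201, with 10 exons, held 16 of 30 reads and 14 of 22. A new model of 5 exons and 3788 bases held 9 and 3 reads; it begins at 91172185 with the first exon of the noncoding annotated transcript Abcd2-202, which lies between exons 6 and 7 of Abcd2-201, and goes on to the annotated end of the gene. That exon of 96 bases is printed because it marks these reads.
Abcd2-202 first exon, 91172090-91172185: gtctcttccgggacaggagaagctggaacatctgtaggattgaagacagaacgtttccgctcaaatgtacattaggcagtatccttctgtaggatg
Models beginning there took 10 of 28 spliced Abcd2 reads in replicate 1, 35.7% (Wilson 20.7 to 54.2), and 3 of 20 in replicate 2, 15.0% (5.24 to 36.0). These intervals overlap, and the difference was not tested.

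**Figure D2:**
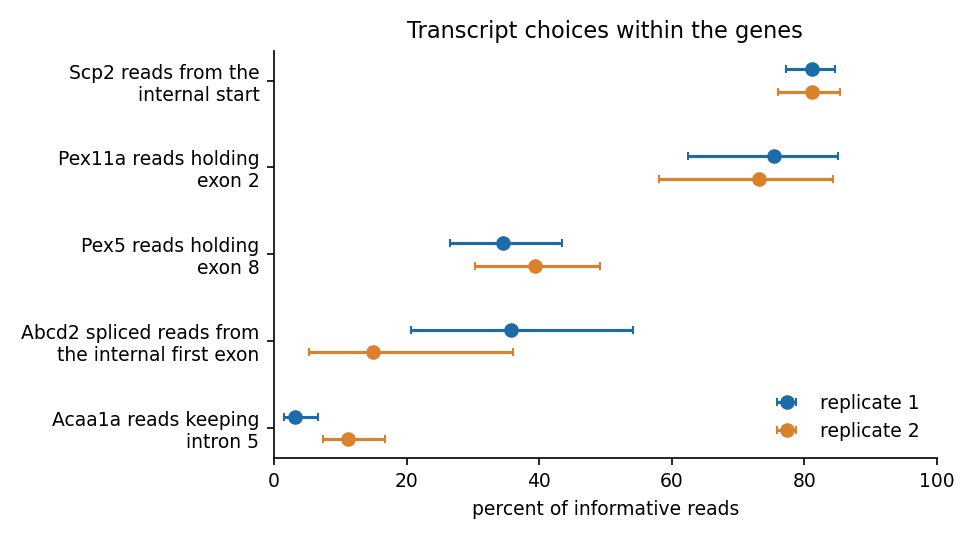
Percent of informative reads (horizontal axis) for the choices described above, with a point per library and bars for 95% Wilson intervals. The Scp2 points lie at 81.2% and 81.1%, and the intervals of the libraries are apart only for intron 5 of Acaa1a, at 3.14% and 11.2%.

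Outside these choices the exons and introns that could be assessed were spliced uniformly. Of 97 annotated internal exons with at least 20 informative reads in each library, 93 were held in over 95% of reads in both, 2 were held in under 5% in both, and the 2 in Pex5 and Pex11a lay between. Of 90 introns of the most read annotated transcripts, 3 were kept in at least 5% of reads in either library, 1 each in Acaa1a, Acaa1b and Pex5. Annotated transcripts held 87.8% and 85.7% of the reads of the 8 genes, against 79.4% and 79.0% over all annotated genes. New models that end like an annotated transcript but begin later took 3.70% and 5.74% of the reads of the 8 genes, and 5.68% and 5.69% over all genes.

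Hsd17b4 encodes the D-bifunctional protein, which adds water to the double bond made by the oxidase and then oxidises the product. The gene (ENSMUSG00000024507.6, chromosome 18, plus strand, 50128201-50196269) was read at 260 CPM (214 reads) in replicate 1 and 180 CPM (118 reads) in replicate 2. Hsd17b4-201, with 24 exons, held 89.3% and 92.4% of its reads. All 22 of its internal exons were held in over 95% of reads, no intron was kept, and no single-exon read was found among 214 and 118. Among its most abundant new spliced models, each with 3 reads in sum, was a 23-exon model with a new splice site, with 3 and 0 reads.

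In order of mean CPM the genes were Scp2 (512 ± 102), Acaa1a (269 ± 26.7), Hsd17b4 (220 ± 56.6), Pex5 (159 ± 9.25), Abcd3 (102 ± 25.7), Pex11a (70.4 ± 1.70), Acaa1b (35.9 ± 0.958) and Abcd2 (34.9 ± 2.05; all mean ± SD, n = 2). The Scp2 value counts all its reads. Its long form, which bears the thiolase, stood at 87.8 ± 16.5 CPM, below the mean of Abcd3. CPM is not divided by length here, and the order per length follows. By the CPM values alone, neighbours in this order did not overlap between libraries, other than Acaa1a with Hsd17b4 and Acaa1b with Abcd2. Counting error leaves more of the order unresolved. In replicate 2 the 95% Poisson intervals overlap for Hsd17b4 (149 to 215) with Pex5 (136 to 200) and for Abcd3 (63.1 to 109) with Pex11a (52.6 to 95.2). Those of Pex11a with Acaa1b in replicate 2 and of Pex5 with Abcd3 in replicate 1 also overlap. With annotated models only, Acaa1b stood at a mean of 30.4 CPM and Abcd2 lower, at the 17 and 14 reads given above. The 8 genes together stood at 1508 and 1299 CPM. Per kilobase of model length the order was the same, other than Pex11a passing Abcd3: Scp2 stood at 462 CPM per kb, Acaa1a at 145, Hsd17b4 at 83.4, Pex5 at 51.9, Pex11a at 38.8, Abcd3 at 30.8, Acaa1b at 21.1 and Abcd2 at 8.00.

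**Figure D3:**
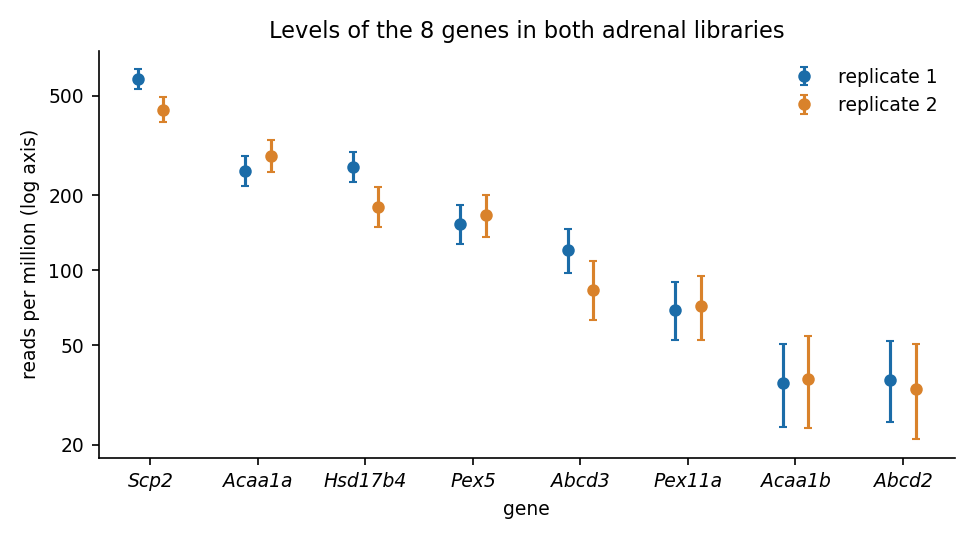
Level of each gene in reads per 1000000 (vertical axis, log scale) in each library, with bars for exact 95% Poisson intervals of the read counts. Scp2, with the reads of both forms together, is highest at 585 and 440 CPM, and Acaa1b and Abcd2 lie between 33.5 and 36.5 CPM. The intervals of the libraries lie apart for Scp2 and Hsd17b4, both lower in replicate 2.

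Between the libraries none of the 8 genes reached both a 2-fold ratio and an adjusted p under 0.05, the rule for a call, where 3.41% of the 8063 genes tested were. The test was a two-sided exact binomial test on genes with 20 or more reads over both libraries, with Benjamini-Hochberg adjustment, and ratios are replicate 2 over replicate 1 on CPM scaled by TMM with 1 CPM added, which moves the ratio of all genes by about 0.10 from library totals. By adjusted p alone, at any ratio, 2 of the 8 genes passed, both lower in replicate 2, where 11.1% of all genes passed in either direction and 7.52% as lower in replicate 2. Hsd17b4 had a log2 ratio of -0.63 (exact binomial test, adjusted p = 0.00204) and Scp2 one of -0.51 (adjusted p = 5.02e-05). With Abcd3, 3 of the 8 had an unadjusted p under 0.05, as did 21.7% of all genes. Abcd3 had a log2 ratio of -0.61, with an unadjusted p of 0.0120 and an adjusted p of 0.0893. The log2 ratios of the other 5 lay between -0.21 for Abcd2 and 0.10 for Acaa1a. In all, 6 of 8 were lower in replicate 2, against 49.1% of all genes; this was 4 of 8 with library totals and 7 of 8 with the size factors of DESeq2. Their median log2 ratio was -0.13, against 0.01 over all genes.

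The ratio moved with transcript length over all genes. Scp2, taken at the length of its short form, lay near the trend, while Hsd17b4 and Abcd3 lay below it. With genes split into 10 groups by the length of their most read annotated transcript, the median log2 ratio was -0.62 in the shortest group, up to 1025 bases, and 0.20 in the group from 3465 to 4069 bases. With this trend taken out by lowess, Scp2, taken at the 772 bases of its short form, had a log2 ratio of 0.07 (exact binomial test, adjusted p = 0.895). Hsd17b4 had one of -0.73 (adjusted p = 3.34e-04) and Abcd3 one of -0.79 (adjusted p = 0.0200). These 2 genes then passed by adjusted p as lower in replicate 2, where 3.82% of all genes did. The long form of Scp2, with 2640 bases, had the log2 ratio of -0.48 given above, where the group of genes from 2584 to 2997 bases had a median of 0.11. Over all Scp2 reads the mean model length was 1109 bases, where the group from 1027 to 1467 bases had a median of -0.29.

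**Figure D4:**
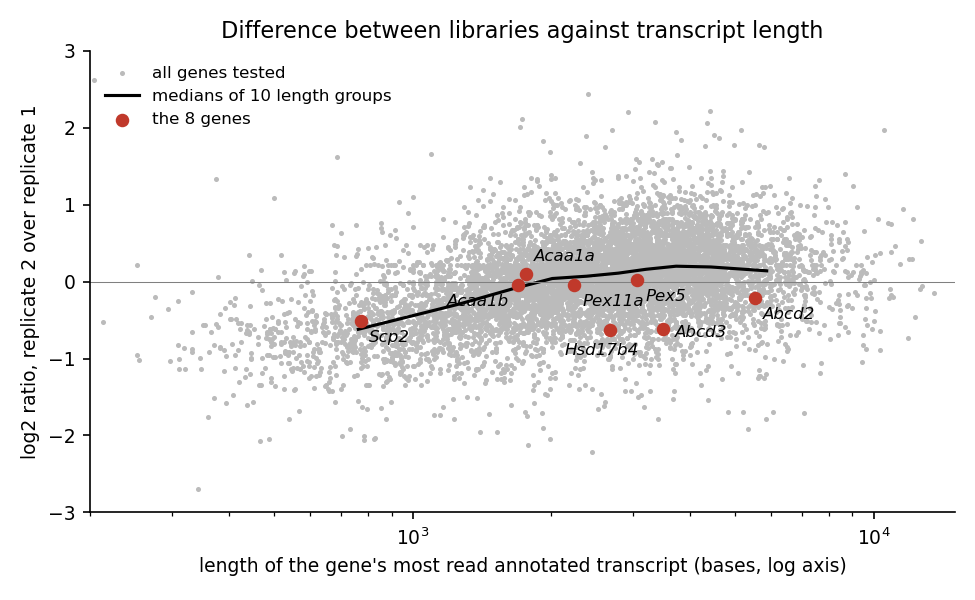
Log2 ratio of replicate 2 over replicate 1 (vertical axis) against the length of each gene's most read annotated transcript in bases (horizontal axis, log scale), with all genes in grey, medians of 10 length groups as a line and the 8 genes in red; 17 genes lie outside the axes. Scp2, placed at the 772 bases of its short form, lies near the line at -0.51, while Hsd17b4 (-0.63) and Abcd3 (-0.61) lie below it.

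Markers of fat were also lower in replicate 2. Of the 5 adipocyte markers 4 could be tested and all 4 passed by adjusted p as lower in replicate 2 (median log2 ratio -0.88); the 5 summed to 3842 and 2268 CPM. All 3 brown adipocyte markers passed as lower, with a median of -1.60, and Ucp1, the uncoupling protein that defines brown fat, stood at 1538 and 544 CPM. With the length trend removed the medians were -0.81 for the adipocyte and -1.36 for the brown adipocyte markers, and 4 and 3 of them passed. Of the 5 cortical markers 4 passed as higher in replicate 2 and Cyp11a1 as lower. Whether the fat in the samples had a part in the values of Hsd17b4, Abcd3 and Scp2 was not tested. In whole tissue, fewer cells of a type and less RNA per cell cannot be told apart.

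Use of the most read transcript did not pass the test in any of the 8 genes. The two-sided exact Fisher test with adjustment called 0 of 8, where 0.394% of the 5334 genes tested were called. Acaa1a had the smallest p, where the share fell by 7.62 percentage points from replicate 1 to replicate 2 (exact Fisher test, p = 0.0493, adjusted p = 0.721), and it was the only one of the 8 with an unadjusted p under 0.05; without reads of no compatible splice pattern, 0 of the 8 had one. Abcd2-201 differed by 10.3 percentage points, from 53.3% to 63.6%, on 30 and 22 reads (exact Fisher test, adjusted p = 1.00).

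Around the 8 genes, 78 further genes were listed by a role given to them in peroxisomes, of which 65 had reads in both libraries and 7 had none in either. Of 59 tested, 0 were called, 6 passed by adjusted p as lower in replicate 2 and 0 as higher, against 11.1% of all genes in either direction and 7.52% as lower. The median log2 ratio was -0.15, and 14 of the 59 had an unadjusted p under 0.05, where 21.7% of all genes did. With the length trend removed 7 of 59 passed by adjusted p, where 5.84% of all genes did, and the median was -0.20. Phyh, Prdx5 and Fis1, which passed without that step, then did not, while Ehhadh, Crat, Nudt7 and Cat did. The list was chosen with earlier results of these data known. Where in the cell the products act was not tested, so reads of a listed gene need not reflect peroxisomes. None of the 10 transporters and membrane proteins tested passed by adjusted p; the highest were Acbd4, an acyl-coenzyme A binding protein, at 142 ± 27.5 CPM, Mpv17 at 123 ± 12.8 CPM and the acyl-coenzyme A synthetase Slc27a4 at 74.3 ± 17.6 CPM (mean ± SD, n = 2).

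Among the 22 further genes of beta-oxidation, 16 were tested and 3 passed, all lower in replicate 2, where 7.52% of all genes passed as lower. Ech1, an isomerase for unsaturated chains, stood at 791 and 466 CPM with a log2 ratio of -0.86 (exact binomial test, adjusted p = 8.37e-17). Acsl1, which activates long-chain fatty acids, stood at 465 and 349 CPM with a log2 ratio of -0.51 (adjusted p = 3.74e-04). Phyh, which starts the alpha-oxidation of phytanic acid, stood at 216 and 142 CPM (adjusted p = 0.00209). With the length trend removed the log2 ratios were -0.58 for Ech1, -0.70 for Acsl1 and -0.51 for Phyh. Ech1 and Acsl1 still passed by adjusted p, and Phyh did not. Acox2, the oxidase for branched chains and bile acid intermediates, had 0 reads, which allows up to 3.64 and 4.57 CPM. Ehhadh, the L-bifunctional enzyme, stood at 57.1 ± 20.5 CPM, below Hsd17b4 in both libraries. Per kilobase the values were 19.9 against 83.4 CPM per kb. Ehhadh models were the longer (mean 2870 against 2635 bases), so division by length could only widen the gap. Crat, which makes carnitine esters for export, stood at 321 ± 23.2 CPM. The median log2 ratio of this role was -0.48, beside medians of -0.88 for the adipocyte and -1.60 for the brown adipocyte markers. With the length trend removed these medians were -0.45, -0.81 and -1.36. Whether fat cells had a part in the median of this role was not tested.

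None of the 13 peroxins tested passed by adjusted p, and their median log2 ratio was 0.11. Pex6, which pulls the receptor back out of the membrane, stood at 237 ± 47.5 CPM, the docking protein Pex14 at 228 ± 6.86 CPM and Pex19, a carrier of membrane proteins, at 161 ± 17.2 CPM. Pex7, the receptor for the N-terminal signal, stood at 52.1 ± 1.65 CPM, below Pex5 in both libraries. Per kilobase the values were 7.23 against 51.9 CPM per kb. Pex7 models were the longer (mean 7210 against 3074 bases), so division by length could only widen the gap.

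Of the 11 antioxidant and other matrix enzymes tested, Prdx5, a peroxidase, and Hao2, a hydroxyacid oxidase, passed as lower in replicate 2, with log2 ratios of -0.72 and -0.26 (exact binomial test, adjusted p = 0.00217 and 0.00621). Hao2 was the highest of the list at 1072 ± 84.5 CPM, followed in its role by the NADPH-producing enzyme Idh1 at 582 ± 3.32 CPM and catalase, Cat, at 495 ± 44.0 CPM. The 4 tested genes of ether lipid synthesis did not pass; Gnpat, Tmem189 and Agps stood at 131 ± 6.73, 72.2 ± 0.876 and 20.2 ± 0.589 CPM. Of the 5 tested genes of fission and control, Fis1, which recruits the fission machinery, passed as lower at 161 and 107 CPM (exact binomial test, adjusted p = 0.0123), and Mff and Rxra stood at 118 ± 12.1 and 51.2 ± 1.36 CPM. Ppara, the receptor that drives peroxisome genes in liver, had 6 reads and 1 read.

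**Figure D5:**
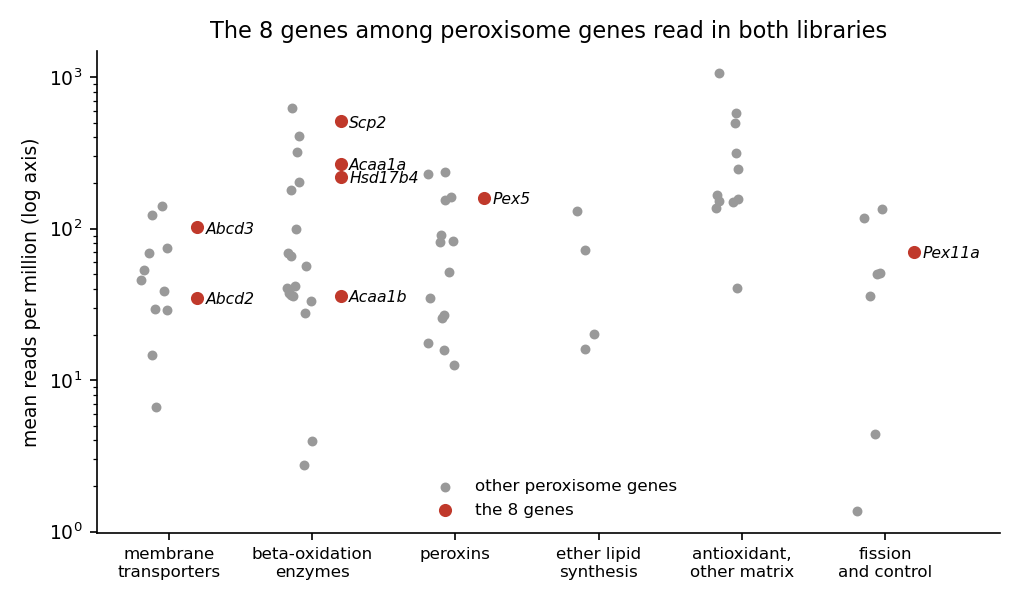
Mean level of peroxisome genes read in both libraries (vertical axis, reads per 1000000, log scale) by role, with the listed genes in grey and the 8 genes in red. All Scp2 reads together are plotted at 512 CPM, of which the thiolase-bearing long form had 87.8 CPM; Ech1 lies at 628 CPM, and Acaa1b and Abcd2 lie near 35 CPM.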

How the data were processed

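For each library the authors deposited a table of raw read counts by transcript model, not normalized, with exon coordinates on mm10. Per the deposited notes the annotation was GENCODE M21, and TALON is named in the deposited annotation. The other deposited columns give each model's exon number and length. Aligner, platform, software versions and the treatment of strand were not given in the sources used here.

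Gene totals are sums over all TALON classes, without spike-ins (0.691% and 0.779% of reads). New spliced models were matched between libraries by intron chain. CPM, TMM scaling (edgeR 4.0.16, R 4.3.3), the exact binomial and Fisher tests (scipy 1.17.1) and their thresholds are described with the results; edgeR's quasi-likelihood test needs replicated groups and could not be fitted. Intervals cover counting error only. Exon inclusion and intron retention needed 20 informative reads per library; retention was added after the models were seen. Named genes were the 8, the 3 most abundant listed genes of each role, Ehhadh, Cat and Pex7, and any called, of which some items are not reported here; Acox2, Phyh, Prdx5, Nudt7 and Ppara were named after their values were seen. Named models were the most read, annotated ones with 5 reads in each library and the most abundant new one with 3. The 8 genes, the lists and this rule were chosen with earlier results of these data known. Alternatives covered model classes, scaling, filters, CPM added, transcript length, start window and leaving out a library. Promoters and names came from RefSeq tables (GRCm38.p6) and GENCODE M21 transcripts.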

Additional observations from a re-analysis of the deposited data

Results flagged for a closer look

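New antisense models, which the levels above leave out, lay over Abcd3 with 4 reads in replicate 1 and 1 read in replicate 2. Only as a sum over separate places, none with more than 2 reads, were the 4 above the 3 reads that a count of 0 allows. The rate of antisense reads over all genes was not computed. On chromosome 3 (mm10), replicate 1 had 2 reads at 121774733-121775112, 1 read at 121786071-121787814 and 1 read at 121815302-121816206. The last of these shares only 1 base, 121815302, with Abcd3, and without it the sum is not above 3 reads. In replicate 2 a model with 1 read lay at 121814720-121816198, over the start of Abcd3. Antisense models also lay over Pex5 (2 and 0 reads), Scp2 (1 and 1) and Hsd17b4 (1 and 0), not above 3 reads, and over none of the other 4 genes. The treatment of strand was not given in the sources used here.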

How the results depend on the processing

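No paired analysis was possible because the libraries form a single group. The summed level of the 8 genes was 1403 CPM, 1218 with annotated models only, and 1299 to 1508 with a library left out. The Scp2 short-form share of 81.2% became 82.1% with annotated models only and 73.9% of all reads of the gene, and 81.1 to 81.2% with a library left out. Among the 8 genes 0 were called and 2 passed by adjusted p alone. Of the listed peroxisome genes 0 were called and 6 passed by adjusted p alone; with annotated models only 1 was called, Ehhadh, at 52 and 21 reads (log2 ratio -1.05, exact binomial test, adjusted p = 0.0336). With the length trend removed, genes called overall fell from 275 to 132.

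Log2 ratios that changed sign were those of Acaa1a with annotated models only (-0.01), Acaa1b with library totals (0.05), without reads of no compatible splice pattern (0.09) and with the length trend removed (0.04), Pex5 with DESeq2 size factors (-0.03) and with the trend removed (-0.12), Pex11a with library totals (0.05), and Scp2 with the trend removed (0.07). The changes with library totals, with DESeq2 size factors and with the trend removed follow from the scaling or trend term itself, which moved ratios near 0, and for Scp2 the trend at 772 bases. For the changes with another choice of models the cause was not tested. Depth limits Abcd2 and Acaa1b most, at 22 to 30 reads in a library.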

Other observations

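Several of the genes share ground with neighbours. Myd88, an adaptor of innate immune receptors, overlaps the 5′ end of Acaa1a on the opposite strand and had 36 and 29 reads. Wdr93 begins 32 bases from Pex11a on the opposite strand and had 2 reads in each library, against 57 and 47 for Pex11a. Plin1, which coats fat droplets, lies 3054 bases beyond the other end of Pex11a on the same strand, with 297 and 187 reads. Podn overlaps the span of Scp2 on the same strand and had 28 and 20 reads, and Dlec1 overlaps the end of Acaa1b with 0 and 2 reads.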
